A study of Mus musculus with 6 samples.

Results

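The tubulin genes Tuba1a, Tuba1b, Tuba4a, Tubb2a, Tubb2b, Tubb3, Tubb4a, Tubb4b, Tubb5 and Tubg1 were followed in mouse hippocampus. They were picked by symbol, matched to their Ensembl identifiers, and are 10 of the 52550 genes in the deposited count table. All 10 had enough reads to be tested. Hippocampal RNA was taken from 3 control animals and from 3 animals labelled L-DL KD, all male, of strain C57BL/6 J and wild type before injection. Adeno-associated virus had been injected into CA1 on both sides when the animals were 8 weeks old. Control animals received a virus with control shRNA, and the others received a virus with shRNAs against L-DL, the long isoform of the RNA-binding protein hnRNP DL. The L-DL virus carried 4 shRNAs in a row behind H1 promoters, which are active in all cell types, and a CamkIIα promoter with zsGreen to make infected neurons visible. By the methods, the virus with control shRNA had the higher titre, so that titre and shRNA cannot be told apart. The labels name the second group once as knockdown and once as knockout, while the methods describe a knockdown.

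Microtubules are hollow polymers of alpha and beta tubulin dimers. They are nucleated by ring complexes that contain gamma tubulin, and in neurons they carry axonal and dendritic transport. Mammals have several genes for alpha and for beta tubulin, whose products are called isotypes. Isotypes differ mostly in the acidic tail at the carboxyl end, where enzymes add or remove glutamate, glycine and a terminal tyrosine. Cells also adjust tubulin mRNA to the amount of free tubulin. When free tubulin rises, the factor TTC5 binds the opening residues of newly made tubulin and the mRNA on that ribosome is degraded.

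The stretches of coding sequence that matter for these properties, the opening and the tail, are shown here to make clear how alike some members are. They were taken from GENCODE M21 transcripts on GRCm38 and are written 5′ to 3′ in lower case. Tails, the last 60 coding bases before the stop codon, are shown for the 6 beta genes. Capitals mark bases that differ from Tubb2a after alignment or have no partner there, and bases missing relative to Tubb2a are not marked. The openings are the first 12 coding bases, printed without capitals.
Tuba1a opening: atgcgtgagtgc
Tuba1b opening: atgcgtgagtgc
Tuba4a opening: atgcgcgagtgc
Tubb2a opening: atgcgcgagatc
Tubb2b opening: atgcgagagatc
Tubb3 opening: atgagggagatc
Tubb4a opening: atgcgggaaatc
Tubb4b opening: atgagggagatc
Tubb5 opening: atgagggaaatc
Tubb2a tail: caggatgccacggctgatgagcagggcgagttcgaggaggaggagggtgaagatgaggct
Tubb2b tail: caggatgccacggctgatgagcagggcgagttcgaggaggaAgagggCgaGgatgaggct
Tubb3 tail: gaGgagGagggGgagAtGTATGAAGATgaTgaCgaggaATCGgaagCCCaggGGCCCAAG
Tubb4a tail: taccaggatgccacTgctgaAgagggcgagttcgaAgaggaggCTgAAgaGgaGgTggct
Tubb4b tail: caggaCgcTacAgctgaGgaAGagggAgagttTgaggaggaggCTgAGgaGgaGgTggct
Tubb5 tail: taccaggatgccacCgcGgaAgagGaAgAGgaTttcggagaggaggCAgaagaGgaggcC

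Among the beta genes, 3 bases were in capitals in the Tubb2b tail and 31 in the Tubb3 tail. Tubb3 has 1350 coding bases and Tubb2a 1335, so the 31 can include bases without a partner. Over the whole coding sequence, Tuba1a and Tuba1b were identical at 98.3% of aligned positions, and Tubb2a and Tubb2b at 96.5%. Alpha genes compared with Tuba4a reached 84.8% to 85.1%. Such likeness bears on the counts, because a read from a shared stretch fits more than 1 gene. Of the stretches of 100 bases in the transcript, 852 of 1704 for Tuba1a and 1136 of 1644 (69.1%) for Tuba1b also occurred in annotated transcripts of another locus. The share was 36.9% for Tubb2a, 27.7% for Tubb2b, 29.2% for Tubb4b and 4.11% for Tubg1, and it was 0% for Tuba4a, Tubb3, Tubb4a and Tubb5. How reads that fit several places were counted is not given in the sources used here, so the values of Tuba1a, Tuba1b, Tubb2a, Tubb2b and Tubb4b are less certain. Annotated copies that were looked up had few reads per library, at most 176 for the alpha tubulin copy Gm17383 and 43 for Tubb4b-ps1. Tuba1c, which also shares stretches with Tuba1a and Tuba1b, had up to 623. Gm49450 and AC157548.1 share such stretches too and were not looked up. These counts do not show how reads were divided between Tuba1a and Tuba1b.

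Gene counts added up to between 16052529 and 16995425 per control library and to between 16525467 and 17913064 per library labelled L-DL KD. Levels are given as CPM, the count of a gene per 1000000 counts of its library, scaled by the TMM method of edgeR. Hnrnpdl, the targeted gene, was at 176, 183 and 170 CPM in control replicates 1 to 3 and at 217, 150 and 173 CPM in those labelled L-DL KD. The groups overlapped, with a log2 fold change of 0.03 (SE 0.12, adjusted p = 0.898, quasi-likelihood test of edgeR, Benjamini-Hochberg adjusted). This count covers all isoforms, and the long isoform was not measured apart. Hippocampal genes were counted in all 6 libraries, at 138 to 194 CPM for Prox1 and 332 to 629 CPM for Zbtb20. Wfs1 ran from 59.4 to 155 CPM and Neurod6 from 22.4 to 162 CPM, a wide range between libraries. The summed level of 5 choroid plexus markers ran from 29.3 to 5130 CPM over all libraries, a wide difference in choroid plexus RNA within both groups.

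Tuba1a, the main alpha isotype of developing and postmitotic neurons, rose 1.59-fold in libraries labelled L-DL KD, and the beta genes Tubb2b and Tubb2a rose 1.32-fold and 1.17-fold. Tubb3, the beta isotype used as a neuronal marker, fell to 0.684 of its control level, and Tuba4a, an alpha isotype of mature neurons, fell to 0.711. Tuba1b, Tubb4a, Tubb4b, Tubb5 and Tubg1 did not pass the test. Of the 10 genes, 3 were called higher and 2 lower at an adjusted p under 0.05. Over all 17621 genes tested, 30.5% were called in either direction, 15.6% higher and 15.0% lower, so the 5 of 10 called here stand beside a broad change of expression. Without control replicate 3, 3 of the 10 were called, 1 higher and 2 lower. The groups did not overlap for 7 of the 10 genes, compared with 47.2% of all genes tested. The median log2 fold change was 0.08 over the 10 genes and 0.01 over all genes. In the same libraries the summed markers of neurons were lower and those of microglia higher, as given with the marker lists, and their part in the tubulin values was not tested.

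**Figure D1:**
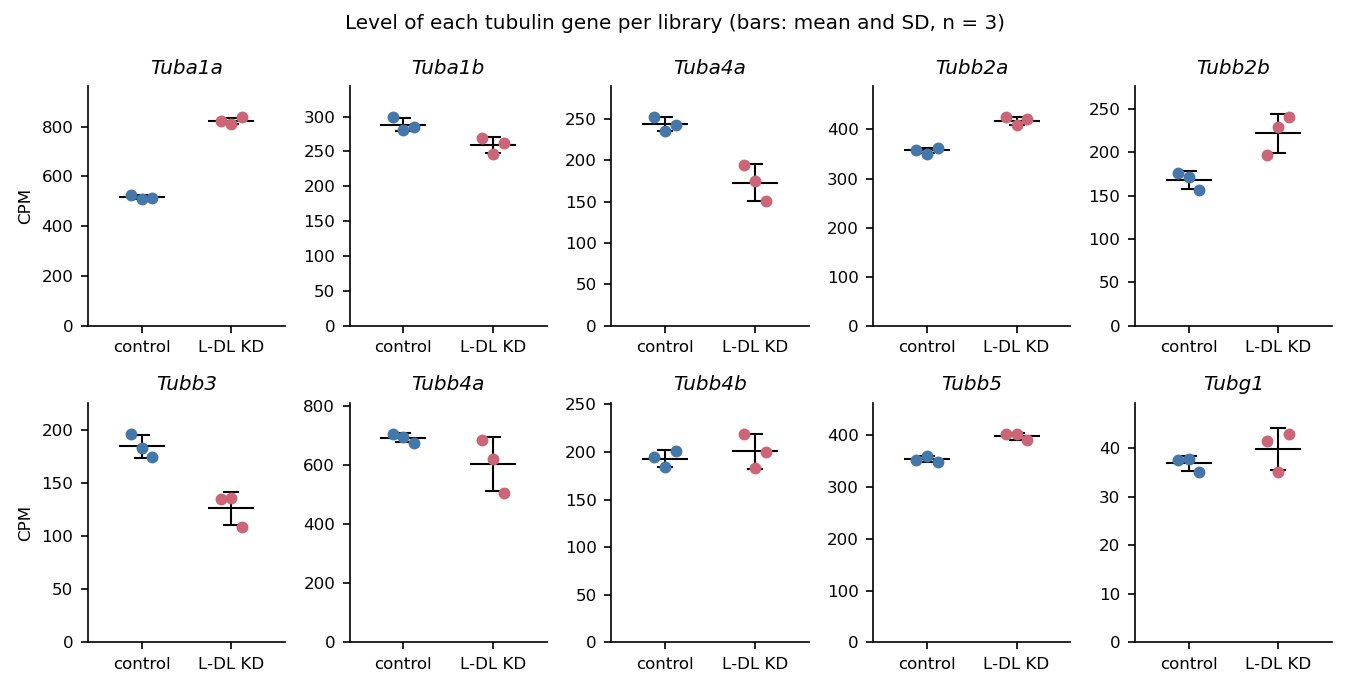
Level of each tubulin gene in CPM (vertical axes from 0) in the 3 control libraries (blue) and the 3 libraries labelled L-DL KD (red), where points are libraries and bars show mean and SD. Tuba1a lies at 511 to 526 CPM in controls and at 812 to 837 CPM in those labelled L-DL KD, while Tubb4b, Tubg1 and Tubb4a overlap.

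Among the alpha genes, Tuba1a (chr15:98949837-98953703, minus strand, GRCm38) was at 526, 511 and 514 CPM in the control libraries and at 821, 812 and 837 CPM in those labelled L-DL KD. The lowest library labelled L-DL KD lay far above the highest control, and the spread within each group was small. The log2 fold change was 0.67 (SE 0.06, adjusted p = 0.0003, edgeR's quasi-likelihood test). Tuba1b (chr15:98931425-98934565), expressed in most cell types and almost identical to Tuba1a in coding sequence, went the other way in value. It was at 299, 281 and 285 CPM in controls and at 269, 246 and 262 CPM in those labelled L-DL KD. Its groups did not overlap. The log2 fold change of -0.15 (SE 0.07, 95% interval -0.305 to -0.0035) missed the threshold, with an adjusted p of 0.112 in edgeR. Of the merged exon length of Tuba1a, 26.2% is shared with Gm49450 on the same strand. For Tuba1b, 27.4% is shared with Gm49450 on the same strand or Gm41396 on the opposite strand.

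Tuba4a (chr1:75214228-75219865) was at 252, 235 and 243 CPM in controls and at 194, 174 and 150 CPM in those labelled L-DL KD. All 3 libraries labelled L-DL KD lay below all controls, with replicate 3 the lowest. Its log2 fold change was -0.49 (SE 0.10, adjusted p = 0.00691, edgeR). Of its merged exon length, 37.3% overlaps Stk16 on the opposite strand, and it is not stated whether counting used strand. Stk16 itself had 681 to 883 counts per library, compared with 2522 to 4088 for Tuba4a.

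Among the beta genes, Tubb2a (chr13:34074274-34078007) and Tubb2b (chr13:34126748-34130466) lie near each other and were both called higher. Tubb2a was at 359, 351 and 362 CPM in controls and at 425, 408 and 420 CPM in those labelled L-DL KD. The groups were apart, with a log2 fold change of 0.23 (SE 0.06, adjusted p = 0.0226, edgeR). The call was lost whenever a control library was left out, where the adjusted p rose to between 0.0694 and 0.0970. Tubb2b, known for its role in migrating cortical neurons, was at 176, 172 and 157 CPM in controls and at 197, 229 and 240 CPM in those labelled L-DL KD. The groups were again apart, and replicate 1 was the lowest of its group. The log2 fold change was 0.40 (SE 0.09, adjusted p = 0.0121, edgeR), and 0.35 with an adjusted p of 0.0544 without control replicate 3.

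Tubb3 (chr8:123411424-123422015) was at 197, 184 and 175 CPM in controls and at 135, 136 and 109 CPM in those labelled L-DL KD. The groups did not overlap, and its log2 fold change of -0.55 (SE 0.10, adjusted p = 0.00498, edgeR) was the lowest of the 10 genes. Tubb4a (chr17:57080066-57087782), which is abundant in neurons and in myelinating oligodendrocytes, was at 706, 695 and 675 CPM in controls. It was at 686, 621 and 507 CPM in libraries labelled L-DL KD, so replicate 1 of that group lay among the controls and replicate 3 well below. The log2 fold change was -0.20 (SE 0.11, 95% interval -0.45 to 0.05, adjusted p = 0.213, edgeR). Without L-DL KD replicate 1 it was -0.29 with an adjusted p of 0.0293, and without replicate 3 it was -0.08 with an adjusted p of 0.458.

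Tubb5 (chr17:35833921-35838306), a widely expressed beta isotype, was at 352, 360 and 349 CPM in controls and at 402, 403 and 391 CPM in those labelled L-DL KD. The groups were apart, yet the log2 fold change of 0.17 (SE 0.06) had an adjusted p of 0.0595 in edgeR. It passed the threshold in DESeq2 (adjusted p = 0.0422) and with scaling by library size alone (adjusted p = 0.0325). Tubb4b (chr2:25222160-25224702), the beta isotype of cilia and of many dividing cells, was at 195, 184 and 201 CPM in controls and at 219, 183 and 200 CPM in those labelled L-DL KD. The groups overlapped, with a log2 fold change of 0.06 (95% interval -0.13 to 0.24, adjusted p = 0.647, edgeR). Tubg1 (chr11:101119938-101126419), the gamma tubulin of the nucleating ring, was at 37.6, 37.8 and 35.1 CPM in controls and at 41.5, 34.99 and 43.0 CPM in those labelled L-DL KD. Its log2 fold change was 0.11 (95% interval -0.11 to 0.34, adjusted p = 0.430, edgeR).

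**Figure D2:**
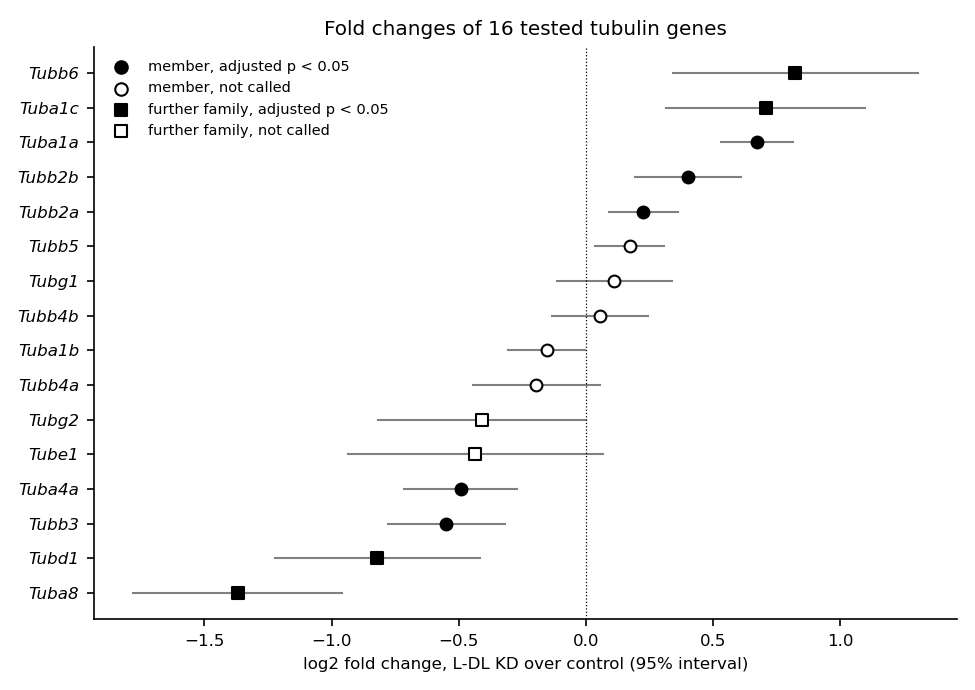
Log2 fold change (horizontal axis, L-DL KD over control) of the 10 tubulin genes (circles) and 6 further family members (squares) with 95% intervals, filled where the adjusted p was under 0.05. Values run from -1.37 for Tuba8 to 0.82 for Tubb6, with Tuba1a at 0.67 and Tubb3 at -0.55 at the ends of the 10 genes.

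To compare genes with each other, levels were divided by the merged exon length of each gene and are given as CPM per kilobase. In controls, Tubb4a was the highest at 311 ± 6.98 CPM per kilobase (SD, n = 3), followed by Tuba1a at 287 ± 4.51, Tubb2a at 222 ± 3.54 and Tuba1b at 154 ± 5.10. Tubb5 (106 ± 1.71), Tubb3 (99.2 ± 5.82) and Tubb4b (92.5 ± 4.13) followed. Neighbours among these last 3 overlapped in range, though Tubb5 lay above Tubb3 in each control library and wholly above Tubb4b. Tubb3 lay above Tubb4b in 2 of the 3 control libraries, so that order lay within the spread. Below them were Tubb2b at 73.3 ± 4.41, Tuba4a at 65.7 ± 2.26 and Tubg1 at 16.3 ± 0.662 CPM per kilobase. With the longest transcript as the length, Tubb4b (121) stood above Tubb3 (99.2), and Tuba4a (85.6) above Tubb2b (77.0), so these places depend on the length used.

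The order was different in libraries labelled L-DL KD. There Tuba1a was the highest at 457 ± 7.14 CPM per kilobase (SD, n = 3). Tubb4a at 271 ± 40.7 and Tubb2a at 260 ± 5.22 overlapped. Tuba1b (138 ± 6.26) and Tubb5 (120 ± 2.02) kept the fourth and the fifth place. Tubb2b at 96.8 ± 9.82 overlapped Tubb4b at 96.1 ± 8.64, and Tubb3 was in the eighth place at 67.8 ± 8.32. In controls Tubb3 was sixth, a place that overlapped Tubb4b and depends on the length used. Tuba4a was at 46.7 ± 5.96 and Tubg1 at 17.6 ± 1.88 CPM per kilobase.

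For the 3 alpha genes, both the make-up and the total differed between the groups without overlap. Tuba1a made up 56.2%, 57.1% and 56.7% of the summed alpha level per kilobase in controls and 69.9%, 71.6% and 72.0% in those labelled L-DL KD. The share of Tuba1b was 30.4% ± 0.299 (SD, n = 3) in controls and 21.5% ± 0.592 in those labelled L-DL KD, and that of Tuba4a was 13.0% ± 0.171 and 7.28% ± 0.902. The summed alpha level was 1077, 1027 and 1041 CPM in controls and 1284, 1233 and 1250 CPM in those labelled L-DL KD, a ratio of 1.20.

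For the 6 beta genes, the sums of the groups overlapped, whereas the shares of Tubb2a, Tubb2b, Tubb3, Tubb4a and Tubb5 did not. The sum was 1984, 1946 and 1920 CPM in controls and 2064, 1981 and 1866 CPM in those labelled L-DL KD, a ratio of 1.01 with overlapping groups. Tubb2a made up 24.6% ± 0.578 (SD, n = 3) of the beta level per kilobase in controls and 28.5% ± 1.46 in those labelled L-DL KD, and Tubb2b 8.10% ± 0.383 and 10.7% ± 1.58. The share of Tubb3 was 10.97% ± 0.458 and 7.42% ± 0.628, and that of Tubb4a 34.4% ± 0.341 and 29.7% ± 3.04. Shares were set by the chosen genes and were not tested.

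**Figure D3:**
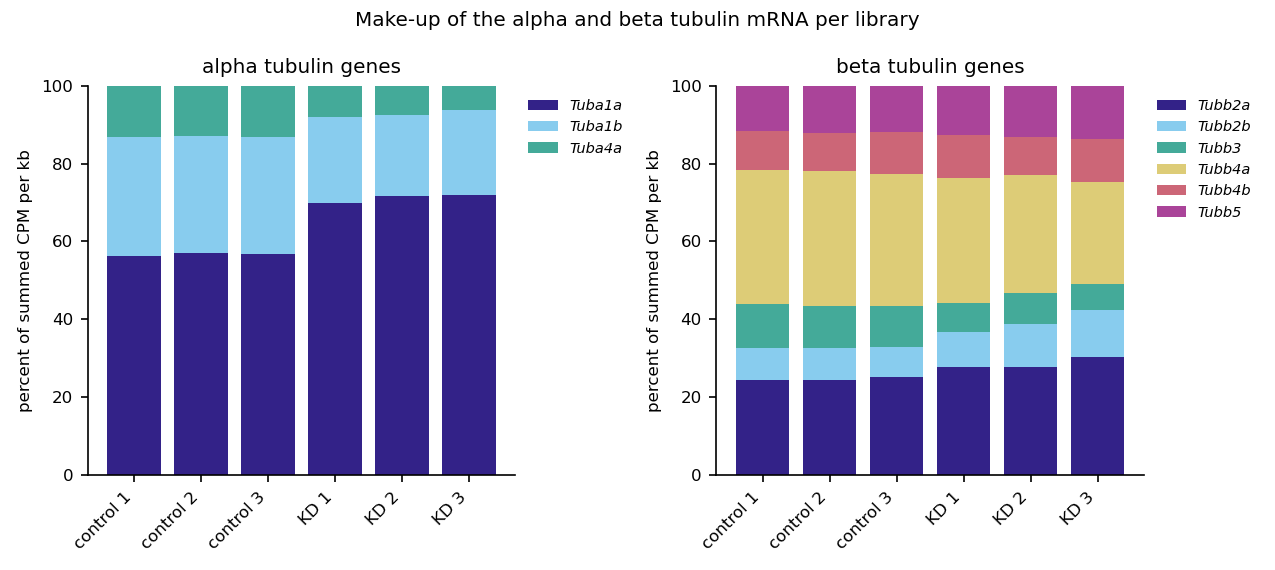
Percent of the summed CPM per kilobase that each alpha gene (left) and each beta gene (right) made up in each library. The Tuba1a share was 56.2% to 57.1% in the 3 control libraries and 69.9% to 72.0% in the 3 libraries labelled L-DL KD.

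Ratios of 2 tubulin genes within a library need no scaling between libraries, and 6 pairs were compared. The test was an exact permutation test, two-sided, which with 3 against 3 libraries cannot go below p = 0.1. The ratio of Tuba1a to Tuba1b counts was 1.76, 1.82 and 1.80 in controls and 3.05, 3.30 and 3.20 in those labelled L-DL KD. The log2 ratio was thus 0.83 higher (exact permutation p = 0.1, adjusted over 6 pairs 0.15). The ratio of Tuba4a to Tuba1a was 0.478, 0.459 and 0.473 in controls and 0.236, 0.215 and 0.179 in those labelled L-DL KD. This was the largest of the 6 differences, at -1.17 on the log2 scale (exact permutation p = 0.1, adjusted 0.15).

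For Tubb3 against Tubb5, the ratio was 0.559, 0.510 and 0.502 in controls and 0.337, 0.337 and 0.278 in those labelled L-DL KD, a log2 difference of -0.73. For Tubb3 against Tubb4a it was 0.279, 0.264 and 0.260 in controls and 0.197, 0.219 and 0.215 in those labelled L-DL KD, a log2 difference of -0.35. Groups were apart in both (exact permutation p = 0.1 and adjusted 0.15 for each), with Tubb3 lower relative to each of these beta genes in every library labelled L-DL KD than in any control. The ratios of Tubb2a to Tubb2b (log2 difference -0.17, exact permutation p = 0.3) and of Tubb4a to Tubb4b (-0.26, exact permutation p = 0.2) overlapped between the groups.

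**Figure D4:**
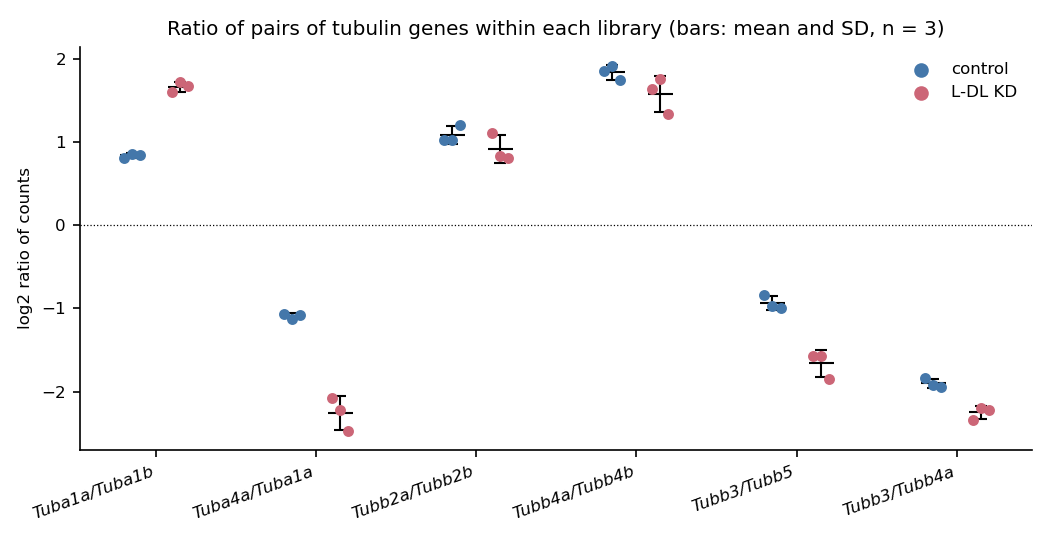
Log2 ratio of the counts of 6 pairs of tubulin genes within each library (vertical axis) in control (blue) and L-DL KD (red) libraries, with mean and SD. The ratios Tuba1a/Tuba1b, Tuba4a/Tuba1a, Tubb3/Tubb5 and Tubb3/Tubb4a separate the groups, while Tubb2a/Tubb2b and Tubb4a/Tubb4b overlap.

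Summed markers of neurons, microglia, astrocytes and endothelium separated the groups, and those of oligodendrocytes, immature neurons and choroid plexus overlapped. Their values stand beside the tubulin values because tubulin isotypes differ between cell types. The share called over all genes was 30.5%, 15.6% higher and 15.0% lower, and each marker count is to be read against it. Of 12 neuron markers, 8 fell and 2 rose (83.3% called), and their summed level was 5726 to 6043 CPM in controls and 4260 to 4926 CPM in those labelled L-DL KD. The 3 most abundant were Snap25, a synaptic fusion protein (1331 ± 19.8 to 663 ± 84.4 CPM, SD, n = 3), Syt1, a calcium sensor of release (log2 fold change -0.92), and Map2, a dendritic microtubule protein (-0.36). Both risers, Nefm (1.65) and Nefl (0.88), encode neurofilaments and were named after their values were seen. All 10 microglia markers rose, with sums of 1389 to 1737 CPM in controls and 2907 to 3784 CPM in those labelled L-DL KD and a median log2 fold change of 1.03.

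Of 9 markers of immature neurons, in which Tuba1a and Tubb2b are also high, 3 rose and 1 fell (44.4% called, beside 30.5% of all genes). The 3 most abundant were Stmn1, a tubulin-binding protein, at -0.22 (adjusted p = 0.0381 in edgeR), Dpysl3, a growth cone protein, at 0.41 (0.00265) and Sox11, a transcription factor, at 0.11 (0.460). The sums over the 9 markers were 315 to 333 CPM and 319 to 368 CPM, and overlapped. Of 10 oligodendrocyte markers 1 rose and 1 fell, a share under the 30.5% of all genes (sums 8276 to 8864 and 7036 to 10344 CPM), and of 8 astrocyte markers 1 rose and 4 fell (7884 to 8029 and 6132 to 7220 CPM). Of 6 endothelium markers 3 rose (280 to 297 and 340 to 418 CPM), and none of 5 choroid plexus markers passed the test in edgeR. No marker of the neuron, microglia, oligodendrocyte, astrocyte, immature neuron or endothelium lists was at 0 in any library. In whole tissue, fewer cells of a type and less RNA per cell cannot be told apart.

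The genes whose pattern was most like that of Tuba1a, the most abundant alpha gene, were Fcrls (Pearson's r = 0.9993), Slc16a1 (0.9986) and Cdk5rap2 (0.9983), out of 5001 genes with a mean of at least 50 CPM. For Tubb4a, the most abundant beta gene, they were Slc8a2 (0.9982), Trnp1 (0.9970) and Syn1 (0.9878). These correlations describe log2 CPM over the same 6 libraries, which fall into 2 groups. Fcrls is a microglia gene, Slc16a1 encodes a monocarboxylate transporter and Cdk5rap2 a protein that binds gamma tubulin rings, while Slc8a2 and Syn1 encode a sodium-calcium exchanger and a synaptic vesicle protein.

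Of 10 further tubulin genes, 6 had enough reads for the test and 4 were called (66.7%, beside 30.5% of all genes). Without control replicate 1, 2 were called, and the count over all genes fell from 5379 to 3524. Tuba1c rose from 17.1 ± 1.35 to 27.9 ± 6.25 CPM (SD, n = 3), with a log2 fold change of 0.71 (adjusted p = 0.0158, edgeR). Of its stretches of 100 bases, 53.4% also occur at other loci, Tuba1a and Tuba1b among them. Tubb6, a beta isotype that is low in adult brain, rose from 11.7 ± 2.54 to 20.7 ± 4.397 CPM, with a log2 fold change of 0.82 (adjusted p = 0.0197, edgeR). Tuba8 fell from 6.84 ± 0.512 to 2.65 ± 0.173 CPM, with a log2 fold change of -1.37 (adjusted p = 0.00122, edgeR). Its counts were 104, 126 and 106 in controls and 51, 44 and 45 in those labelled L-DL KD.

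Tubd1, the delta tubulin of centrioles, fell from 11.7 ± 0.628 to 6.62 ± 1.30 CPM (SD, n = 3), with a log2 fold change of -0.82 (adjusted p = 0.00977, edgeR). The epsilon tubulin Tube1 had a log2 fold change of -0.43 (adjusted p = 0.169) and the gamma tubulin Tubg2 one of -0.41 (adjusted p = 0.119), and neither passed the test in edgeR. Tuba3a and Tuba3b, alpha genes known from testis, had 58 and 81 counts in control replicate 2 and at most 5 in any other library. Tubb1, a platelet isotype, had at most 6 counts, and Tubal3 had 0 counts in every library. With the 10 genes above, 16 tubulin genes were tested, and the plot of their fold changes shows those of both lists side by side.

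Of 21 subunits of the CCT chaperonin, prefoldin and tubulin cofactors, which fold tubulin, 2 rose and 2 fell (19.05% called, beside 30.5% of all genes), with a median log2 fold change of 0.01, equal to that of all genes. The risers were Pfdn1, a prefoldin subunit (0.38), and Tbcd, a cofactor for beta tubulin (0.35), and those that fell were Pfdn4 (-0.90) and Tbca (-0.41), also a prefoldin subunit and a beta tubulin cofactor. None of the 8 CCT subunits passed the test. The count of 4 was 1 without control replicate 2, and 2 without control replicate 3 or without L-DL KD replicate 2. Ttc5 (log2 fold change -0.05, adjusted p = 0.708) and Scaper (-0.34, adjusted p = 0.119), which act in the decay of tubulin mRNA, did not pass the test in edgeR, though 1 of the pair was called without L-DL KD replicate 1.

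Enzymes that modify the tails or a lysine of tubulin changed in both directions, with 5 of 23 higher and 4 lower (39.1% called, beside 30.5% of all genes). Without control replicate 3, 5 of the 23 were called. Ttl, the ligase that adds the terminal tyrosine back to alpha tubulin, was at 54.8, 58.6 and 54.1 CPM in controls and at 33.6, 25.4 and 22.7 CPM in those labelled L-DL KD. The groups were far apart, with a log2 fold change of -1.03 (SE 0.14, adjusted p = 0.00138, edgeR). Vash1, a carboxypeptidase that removes this tyrosine, was at 31.8, 33.4 and 35.5 CPM in controls and at 67.8, 71.9 and 61.4 CPM in those labelled L-DL KD. Its mean rose from 33.5 ± 1.88 to 67.0 ± 5.28 CPM (SD, n = 3, adjusted p = 0.000247, edgeR).

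Svbp, the small partner of the vasohibins, rose from 9.32 ± 0.680 to 13.0 ± 0.516 CPM (SD, n = 3; log2 fold change 0.48, adjusted p = 0.0223, edgeR), and was named after its values were seen. The other 2 of the largest rises were Ttll9, a member of the tubulin ligase-like family at 1.53 ± 0.0646 and 3.06 ± 0.138 CPM (SD, n = 3), and Sirt2 (log2 fold change 0.61), a deacetylase of tubulin lysine that is abundant in oligodendrocytes. The other 2 of the largest falls were Ttll11 (log2 fold change -0.94), a polyglutamylase, and Agbl3 (-0.65), a deglutamylase. The median over the 23 genes was -0.17, compared with 0.01 over all genes.

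Of 19 genes of the gamma tubulin ring complex, its anchors and augmin, 5 rose and 1 fell, or 31.6%, near the 30.5% of all genes. Those with the largest rises were Haus7 and Haus6, subunits of augmin (0.84 and 0.64), and Nedd1, which recruits the ring to centrosomes (0.71). Mzt1, a small ring subunit, fell by 0.58 on the log2 scale, from 76.9 ± 3.02 to 51.5 ± 2.06 CPM (SD, n = 3, adjusted p = 0.000802, edgeR). The median over the list was 0.10. Leaving out control replicate 1, 2 or 3 lowered the count called over these 5 microtubule lists from 23 to 17, 16 or 14.

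**Figure D5:**
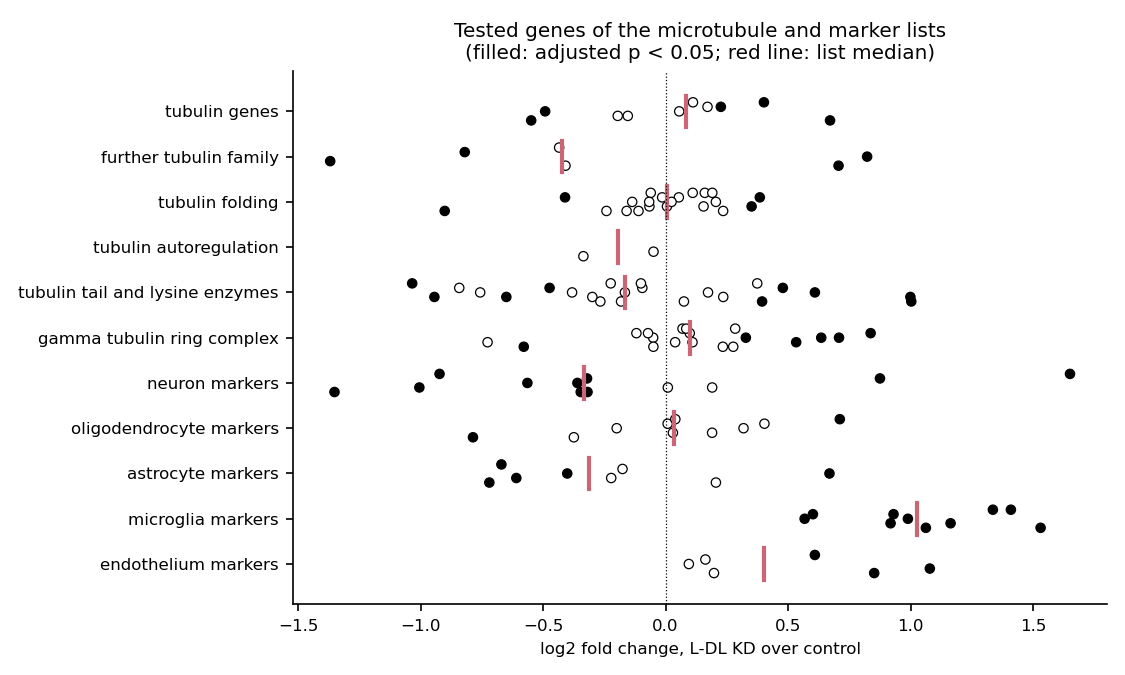
Log2 fold change (horizontal axis) of each tested gene of the tubulin, microtubule and cell type marker lists, filled where the adjusted p was under 0.05, with the list median as a red line. Microglia markers lie to the right (median 1.03), folding genes around 0 and tail and lysine enzymes on both sides.

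Splicing of the 10 genes was read from the deposited rMATS table, which counts junction reads for the inclusion and for the skipping of an exon and gives the percent spliced in (PSI, here from 0 to 1). Of 40961 events in 10911 genes, 4 lay in 3 of the 10 genes, each a skipped exon, and none was called by edgeR at an adjusted p under 0.05, where 0.255% of 18829 events tested were called. Inclusion was close to complete everywhere. In Tubb4a, the exon at chr17:57086231-57086339 was included in 1801, 1992 and 1884 junction reads in controls and in 2244, 2073 and 1407 in those labelled L-DL KD. Skipping reads numbered 0, 0 and 0 in controls and 7, 1 and 1 in those labelled L-DL KD, a PSI of 0.995 to 1 over the libraries. Its unadjusted p was 0.0172 and its adjusted p 0.282 in edgeR, and the exact permutation p was 0.1.

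The exon of Tubb4b at chr2:25223934-25224044 had 795 to 917 inclusion reads in controls and 983 to 1180 in those labelled L-DL KD, with at most 4 skipping reads in any library (adjusted p = 0.959, edgeR; exact permutation p = 1). The second Tubb4a exon, at chr17:57085992-57086102, and the Tubb2a exon at chr13:34076178-34076288 had at most 2 skipping reads in any library, too few for the test. Tuba1a, Tuba1b, Tuba4a, Tubb2b, Tubb3, Tubb5 and Tubg1 had no event in the table. Beyond the 10 genes, an exon of Tubg2 at chr11:101156448-101156560, picked after its values were seen, had 0 skipping reads in the 3 controls and 2, 13 and 6 in those labelled L-DL KD. Its PSI was 1 in each control and 0.961, 0.760 and 0.855 in those labelled L-DL KD (adjusted p = 0.134, edgeR; exact permutation p = 0.1).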

How the data were processed

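RNA was extracted by Trizol, enriched by oligo(dT) and made into libraries with the NEBNext Ultra RNA kit. The authors deposited raw counts of reads per Ensembl gene, without normalization, from read pairs aligned to GRCm38, and the rMATS junction counts of splicing events. The submitters' processing notes name mm10, Bowtie 1.1.2, HISAT2 2.1.0 and HTSeq 0.6.1. Whether counting used strand, or how reads that fit several genes were treated, is not given in the sources used here. Reads from near-identical genes may thus be lost or moved between them. The table also holds the authors' own p-values, FDR and inclusion differences, which were not used. In the splicing table, the group written first was taken as L-DL KD because the paper defines the change as knockdown minus control and the deposited difference is level 1 minus level 2, to within 0.0005 over all 40961 events.

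Genes that reached 10 counts in 3 or more libraries were tested with edgeR 4.0.16 (TMM, quasi-likelihood test, R 4.3.3), adjusted by Benjamini-Hochberg over all genes tested and called under 0.05. Splicing events averaging 20 or more counts per library, and 1 or more for each form, were tested with edgeR on 12 columns, with an effect for each library. Alternatives were DESeq2 1.42.0, limma 3.58.1 with a pseudocount of 0.5, other filters and scalings, a replicate block, and each library left out in turn. Both edgeR models were also run on simulated data. The gene simulation changed far fewer genes than were called here, and no result above rests on these runs. Exact permutation tests used scipy 1.17.1. Lengths and sequences came from GENCODE M21. Per-length levels were CPM divided by merged exon length, and library totals bound counting error only. Nothing says that replicates are separate litters or days, so p-values measure the spread between these mice.

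The 10 genes, the microtubule lists and the marker lists were chosen with earlier results of these data known. Named were all 10 genes, the further family, the 3 largest rises and falls among called genes of each list whose groups did not overlap, up to 3 markers per list with the highest level, and the 3 most similar genes of the most abundant alpha and beta gene. The hippocampal genes were added after the data were seen. The tail sequences of the alpha genes are not reported here.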

Additional observations from a re-analysis of the deposited data

How the results depend on the processing

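Of 110 refits of single tubulin genes, 100 kept their direction and their side of the threshold. Tuba1a, Tuba4a and Tubb3 were called in all of them. Tubb2a lost its call without the filter on low counts (0.23, adjusted p = 0.0581 in edgeR) and with a replicate block (0.23, adjusted p = 0.0529 in edgeR). With this block, 4 tubulin genes were called (2 higher, 2 lower), 21 genes of the microtubule lists and 4634 genes in all. Deviations of log2 levels from their group mean correlated at 0.07, 0.18 and -0.16 between same-numbered libraries, and at -0.258 to 0.189 between others. With 3 libraries per group, this cannot decide whether the numbers pair the samples. Tubb4b changed sign without L-DL KD replicate 1, with a range of -0.0093 to 0.12 when 1 library was left out. Leaving out 1 library gave 3 to 6 tubulin genes called (1 to 3 higher, 2 to 3 lower), 14 to 30 in the microtubule lists and 3498 to 6477 genes in all, against 5379 with all libraries. The lowest counts came without control replicate 3 (3498 genes in all). Without control replicate 1 or 2 they were nearly as low (3524 and 3541 genes), and the cause was not tested. Differences of the 6 isotype ratios kept their sign in all 42 alternatives. Per length, the longest transcript in place of merged exons gave control levels of 165 for Tuba1b, 85.6 for Tuba4a, 121 for Tubb4b, 134 for Tubb5 and 20.4 CPM per kilobase for Tubg1, since these transcripts are shorter than the merged exons. Leaving out 1 library gave log2 ratios of 0.24 to 0.28 for the alpha sum and -0.02 to 0.05 for the beta sum. Events called over the whole table numbered 48, 49 with at least 50 counts, 0 by limma (2377 at an unadjusted p under 0.05) and 0 to 52 without 1 library. No alternative called an event of the 10 genes. Scaling by library size called 32 marker genes in place of 34.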
